A study of Mus musculus with 4 samples.

Results

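The serotonin receptor genes *Htr1a*, *Htr1b*, *Htr1f*, *Htr2a*, *Htr2c*, *Htr3a*, *Htr4* and *Htr7* were followed through single-nuclei RNA sequencing (snRNAseq) of the mouse hippocampus after repeated social defeat (RSD). These 8 genes were taken by symbol from the 56748 genes of the deposited gene table, of which 37385 had at least 1 unique transcript (UMI). The set was chosen with earlier results of these data known, and 6 other serotonin receptor genes were left to a separate list. Male mice met a larger aggressor for 2 h on each of 6 nights or were left undisturbed (control), and hippocampal nuclei were taken 14 h after the end of RSD. Hippocampi of 3 mice were pooled for each of 8 groups, which makes 1 pool per group and 4 pairs of a control and a stress pool.

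The vehicle pair (Control-Vehicle, Stress-Vehicle) and the PLX5622 pair (Control-PLX5622, Stress-PLX5622) were C57BL/6 mice, 5 to 7 weeks old when bought, on plain chow or on chow with PLX5622, a CSF1R inhibitor that depletes microglia, from 7 days before RSD. The IL-1R1+/+ pair (Con-IL-1R1+/+, Stress-IL-1R1+/+) was Cre-negative, and its age is not given in the sources used here. In the nIL-1R1-/- pair (Con-nIL-1R1-/-, Stress-nIL-1R1-/-), Cre driven by *Vglut2* (*Slc17a6*) deletes *Il1r1* in glutamatergic neurons. *Il1r1*, the receptor for interleukin-1, was at 11.5 and 9.13 CPM (a gene's UMIs scaled to a common library total) in dentate granule nuclei of the knockout pools against 28.6 to 87.1 CPM in the other 6 pools. *Csf1r*, which PLX5622 inhibits as a protein, was at 1.70 and 1.19 CPM over all nuclei of the PLX5622 pools and at 5.54 to 14.1 CPM in the others, and *P2ry12*, a microglial gene, was at 3.40 and 3.32 against 4.68 to 7.73 CPM.

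After 516 nuclei with over 20% mitochondrial UMIs were left out of 57350, the pools held 5858 to 8474 nuclei. Median depth ran from 598 UMIs per nucleus in Control-PLX5622 and 628 in Stress-PLX5622 to 5012 in Con-nIL-1R1-/-. The stress pool was shallower in the vehicle pair (1325.5 against 2563) and in the nIL-1R1-/- pair (2580 against 5012). RSD and depth cannot be told apart within these pairs. In the IL-1R1+/+ pair the stress pool had 3218.5 and the control pool 3098.5. Each of the 4 sublibraries held nuclei of all 8 pools, and no barcode name was found in more than 1 pool. Nuclei were clustered without any serotonin receptor gene, and clusters were named from marker genes. Dentate gyrus (DG) granule (8797 nuclei), CA1 pyramidal (6514), CA3/CA2 pyramidal (3772), *Lhx6*-lineage GABA (2695), *Adarb2*-lineage GABA (1645) and retrohippocampal excitatory nuclei (2265) each had at least 30 nuclei in every pool. Another 24976 of the 51499 nuclei in neuronal clusters kept no name. The makeup of the pools differed: 244 of 262 medium spiny nuclei, a striatal type, were in Stress-IL-1R1+/+, and an unnamed cluster led by *Zfhx3* and *Ebf1* had 1579 of its 1953 nuclei in Con-IL-1R1+/+. Another unnamed cluster was led by *Igfn1* and *Pdzrn3*, with *Rorb* among its 10 leading genes. Its control pools had 243, 259, 60 and 231 nuclei (vehicle, PLX5622, IL-1R1+/+, nIL-1R1-/-). Its stress pools, in the same order, had 695, 145, 658 and 693. As each pool is 1 tissue sample, nuclei of a pool were never counted as replicates, p-values measure the spread between pools, and fewer cells of a subtype and less RNA per cell cannot be told apart in a class sum.

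Serotonin reaches the hippocampus in fibres from the raphe nuclei of the brainstem, and its receptors differ in what they do to the cell. The products of *Htr1a*, *Htr1b* and *Htr1f* couple to Gi and lower cyclic AMP, those of *Htr2a* and *Htr2c* couple to Gq and phospholipase C, those of *Htr4* and *Htr7* couple to Gs and raise cyclic AMP, and *Htr3a* encodes a subunit of a cation channel that serotonin opens. Nuclear RNA holds unspliced transcripts, so a long gene gives more UMIs than a short one at the same number of RNA molecules, and levels of different genes are compared below only per kilobase (kb) of gene body. In the GENCODE vM39 annotation of GRCm39, *Htr1a* (chr13:105580147-105584630, + strand) spans 4.5 kb in 1 exon and *Htr1b* (chr9:81510344-81515902, − strand) 5.6 kb in 2 exons. *Htr1f* (chr16:64742111-64926217, − strand) spans 184.1 kb, *Htr2a* (chr14:74877344-74946934, + strand) 69.6 kb, *Htr2c* (chrX:145745509-145980286, + strand) 234.8 kb, *Htr3a* (chr9:48810512-48822686, − strand) 12.2 kb, *Htr4* 172.9 kb and *Htr7* (chr19:35935818-36035177, − strand) 99.4 kb.

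The receptor genes were found mostly in neuronal clusters, which held most nuclei, and were split between neuron classes. Of their UMIs over all nuclei, 33038 belonged to *Htr4*, 31622 to *Htr1f*, 16363 to *Htr2c*, 4646 to *Htr7*, 4620 to *Htr2a*, 463 to *Htr1b* and 232 to *Htr1a*, with *Htr3a* in between. Between 97.0% (*Htr1a*) and 98.8% (*Htr3a*) of each gene's UMIs lay in neuronal clusters. These clusters held 51499 of all 56834 nuclei. The share over all genes was not taken, so these percentages do not set the receptor genes apart. Among the 6 classes, *Htr4* was highest in DG granule nuclei, *Htr2c*, *Htr3a* and *Htr7* in *Adarb2*-lineage GABA nuclei, *Htr1f* and *Htr2a* in retrohippocampal excitatory nuclei, and *Htr1a* and *Htr1b* in CA1 pyramidal nuclei. Per kb of gene body, the mean level in that highest class was 2.16 CPM for *Htr1f*, 2.01 for *Htr4*, 1.73 for *Htr3a*, 0.965 for *Htr1b*, 0.812 for *Htr2c*, 0.751 for *Htr2a*, 0.506 for *Htr7* and 0.390 for *Htr1a*. *Htr3a*, with few UMIs, thus stood near *Htr1f* and *Htr4* on the per-length scale.

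**Figure D1:**
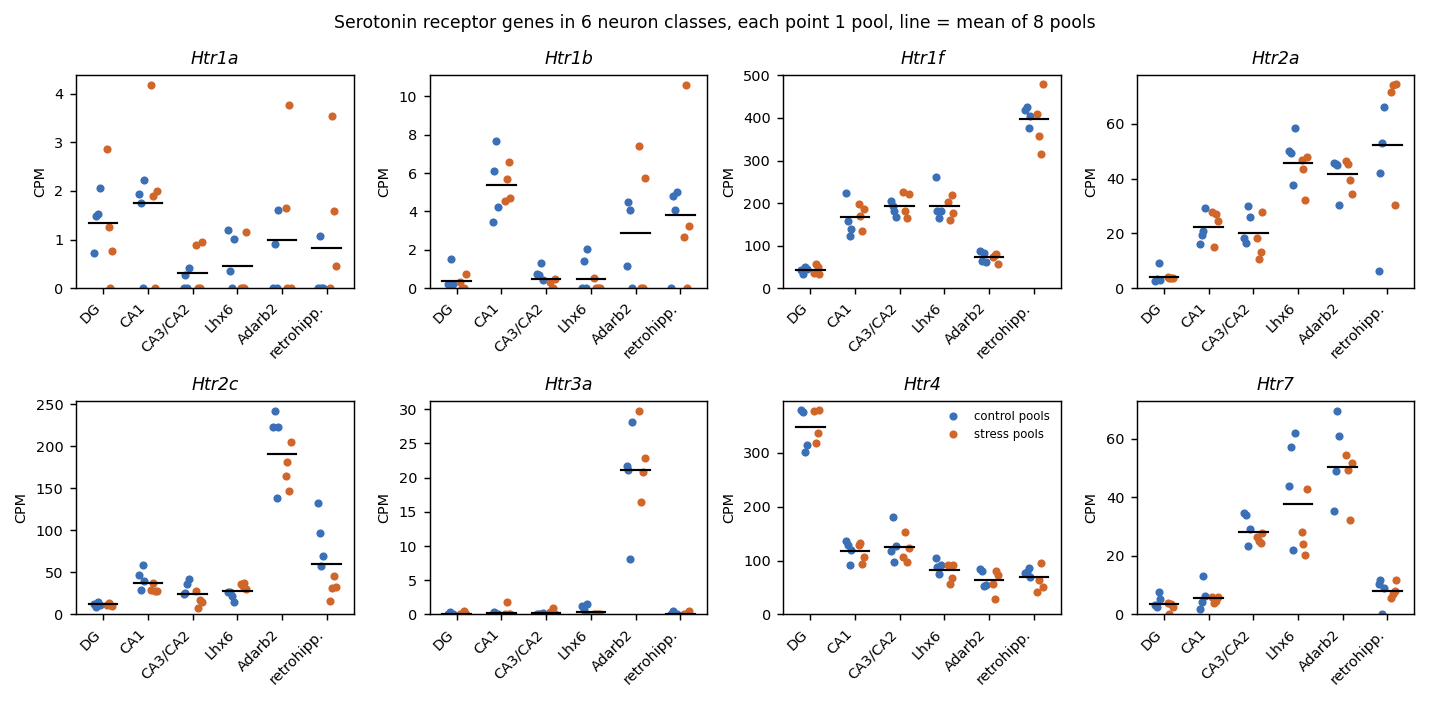
Level of each serotonin receptor gene (CPM, linear axis from 0, a different range in each panel) in 6 neuron classes; each point is 1 of 8 pools (blue control, orange stress) and each line the mean of 8 pools. *Htr4* stood at 301 to 379 CPM in DG granule nuclei and *Htr3a* at 8.17 to 29.7 CPM in *Adarb2*-lineage GABA nuclei, in each case above every other class in all 8 pools.

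To ask which steps in each gene's order of classes exceeded the spread between pools, neighbouring classes were compared within pools with an exact two-sided sign-flip permutation test over 8 pools on log2(CPM + 1). Of 40 neighbour pairs, 10 passed after Benjamini-Hochberg adjustment over the 40 (adjusted p = 0.0312 in each, unadjusted p = 0.00781, the smallest that 8 pools allow). All 8 pools had the same order in each of these 10. The other 30 steps were not separated from the spread between pools. After each nucleus was thinned to 500 UMIs, 0 steps passed the adjustment and 6 of the 10 held in 8 of 8 pools. Those 6 were at an unadjusted p of 0.00781 (exact permutation test), and 6 steps at this smallest p cannot pass an adjustment over 40. The count of 0 therefore does not show that these steps were lost. *Htr1f* in *Adarb2*-lineage over DG nuclei and *Htr2a* in *Adarb2*-lineage over CA1 nuclei then held in 5 of 8 pools, and *Htr2a* in CA3/CA2 over DG nuclei and *Htr4* in CA1 over *Lhx6*-lineage nuclei in 7 of 8. With any pair of pools left out, the 6 others allow no p under 0.0312, and 0 steps passed.

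Of the Gi-coupled genes, *Htr1f* gave by far the most UMIs, from a long gene body. Per kb, the mean of *Htr1b* was above that of *Htr1f* in CA1 (0.965 against 0.905 CPM per kb) and in *Adarb2*-lineage nuclei (0.515 against 0.397 CPM per kb). These *Htr1b* means rest on 123 and 27 UMIs. With nuclei thinned to equal depth, *Htr1b* was below *Htr1f* in CA1 (0.727 against 1.04 CPM per kb) and *Adarb2*-lineage nuclei (0.288 against 0.358). The thinned *Htr1b* means rest on 12 and 1 UMIs, so the order of these genes per kb was not settled. In retrohippocampal excitatory nuclei *Htr1f* was at 398 ± 49.2 CPM (SD, n = 8 pools), with a lowest pool at 316, a median of 407 and a highest pool at 480 CPM. *Lhx6*-lineage GABA nuclei followed at 194 ± 33.5 CPM, with CA3/CA2 at 193 ± 22.7 and CA1 at 167 ± 34.8 CPM. *Adarb2*-lineage GABA nuclei held 73.1 ± 10.98 CPM and DG granule nuclei 43.4 ± 8.90 CPM. The steps from retrohippocampal to *Lhx6*-lineage nuclei, from CA1 to *Adarb2*-lineage nuclei and from *Adarb2*-lineage nuclei to DG granule nuclei passed the test (exact permutation test, adjusted p = 0.0312), and *Lhx6*-lineage, CA3/CA2 and CA1 nuclei were not separated in a row. Between *Lhx6*-lineage and CA3/CA2 nuclei the mean within-pool log2 difference was −0.0032 ± 0.26 (SD).

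The *Lhx6* class held 2 kinds of nuclei that differed in *Htr1f*. At a finer clustering (resolution 2.0), 1 cluster was led by *Btbd11*, *Erbb4* and *Tll1* and held 283 CPM of *Htr1f* over its pools (95% counting interval 270 to 296), with 221 to 409 CPM in single pools. The other, led by *Lypd6b* and *Elfn1*, held 84.8 to 137 CPM in single pools, and the first was higher in 8 of 8 pools. *Htr2a* and *Htr7* showed no such separation there: *Htr2a* ran from 24.3 to 49.7 CPM in the *Lypd6b* cluster and from 27.8 to 63.2 in the *Btbd11* cluster, and *Htr7* from 16.2 to 63.4 and from 0 to 63.2 CPM. The highest *Htr1f* level of any fine cluster was 512 CPM (489 to 536), in an unnamed cluster of 848 nuclei led by *Fn1*.

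*Htr1a* and *Htr1b*, the short Gi-coupled genes, were near the limit of detection. *Htr1b*, known as a terminal autoreceptor and heteroreceptor, was at 5.37 ± 1.39 CPM in CA1 pyramidal nuclei, from 3.44 to 7.66 CPM with a median of 5.18. Retrohippocampal (3.80 ± 3.37 CPM) and *Adarb2*-lineage nuclei (2.86 ± 2.95 CPM) came next, and 1.80% of CA1 nuclei had a *Htr1b* UMI. In oligodendrocytes, which serve here as a background class and had a median of 1469.5 UMIs against 2524 in CA1, 0 of 1080 nuclei had one, which allows a share of up to 0.278%. Thinned to 500 UMIs, 0.191% of CA1 nuclei had one, so the classes could not be told apart by this share at equal depth. *Htr1a*, the somatodendritic autoreceptor gene of raphe neurons that is also known from hippocampal pyramidal cells, was at 1.75 ± 1.33 CPM in CA1 and 1.33 ± 0.878 CPM in DG nuclei, with 49 and 36 UMIs in all. None of their 10 neighbour steps passed the test, so the order of neighbouring classes for *Htr1a* and *Htr1b* was not resolved at this depth. Classes further apart in the order were not tested. For *Htr1b*, the lowest CA1 pool (3.44 CPM) stood above the highest pool of *Lhx6*-lineage (2.03), DG granule (1.53) and CA3/CA2 nuclei (1.297 CPM). That separation was lost after thinning to 500 UMIs, where the lowest CA1 pool was at 0 CPM.

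Of the Gq-coupled genes, *Htr2a* was shared by several classes. *Htr2c* was concentrated in *Adarb2*-lineage nuclei among the 6 classes, though some unnamed clusters held more. *Htr2a*, the receptor gene on which classical hallucinogens act, was at 52.3 ± 24.6 CPM in retrohippocampal, 45.8 ± 7.99 in *Lhx6*-lineage and 41.5 ± 6.04 CPM in *Adarb2*-lineage nuclei, which were not separated from each other. The pools of the retrohippocampal class ran from 6.23 (3 UMIs, Con-IL-1R1+/+) to 74.4 CPM with a median of 59.6. Thinned to 500 UMIs, the mean of this class was 31.6 CPM, and it stood above *Lhx6*-lineage nuclei in 3 of 8 pools. *Adarb2*-lineage nuclei stood above CA1 pyramidal nuclei (22.5 ± 5.42 CPM), and CA3/CA2 nuclei (20.04 ± 7.02) above DG granule nuclei (4.18 ± 2.07 CPM), in 8 of 8 pools each (exact permutation test, adjusted p = 0.0312).

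*Htr2c* was at 191 ± 38.4 CPM in *Adarb2*-lineage GABA nuclei, with a lowest pool at 139, a median of 193 and a highest pool at 242 CPM. Every other class was lower: 60.5 ± 38.6 CPM in retrohippocampal, 37.5 ± 11.1 in CA1, 28.5 ± 7.63 in *Lhx6*-lineage, 24.6 ± 11.5 in CA3/CA2 and 11.9 ± 2.01 CPM in DG granule nuclei. Only the first of these steps, from *Adarb2*-lineage to retrohippocampal nuclei, passed the test, with a mean log2 difference of 1.87 ± 0.836 (SD). A *Htr2c* UMI was found in 28.3% of *Adarb2*-lineage nuclei (median depth 2342 UMIs) and in 1.48% of oligodendrocytes. After each nucleus was thinned to 500 UMIs, these shares were 7.64% and 0.285%, with 166 and 29 shallower nuclei left out.

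The highest *Htr2c* levels of neurons lay in clusters with no class name. A cluster led by *Kcnh8*, *Sntb1* and *Vwc2l*, which took the retrohippocampal name only at the finer clustering, held 373 CPM over its pools, from 220 in Stress-PLX5622 to 426 CPM in Stress-Vehicle. A cluster led by *Col6a1* held 345 CPM and the cluster led by *Zfhx3* and *Ebf1*, most of which came from Con-IL-1R1+/+, held 328 CPM. Single pools ran from 137 to 472 CPM in the *Col6a1* cluster and from 25.7 to 396 CPM in the *Zfhx3* cluster. The *Col6a1* cluster also held 328 CPM of *Htr4*, close to the 358 CPM that DG granule nuclei held over their pools. Outside neurons, *Htr2c* in the ependymal cluster came from 2 nuclei, both of Con-IL-1R1+/+, that had UMIs of at least 5 of 6 choroid plexus markers: they held 104 of its 108 UMIs (75 and 29), or 12111 CPM, while the 89 other nuclei were at 12.5 CPM. The choroid plexus is known for its abundant *Htr2c*.

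**Figure D2:**
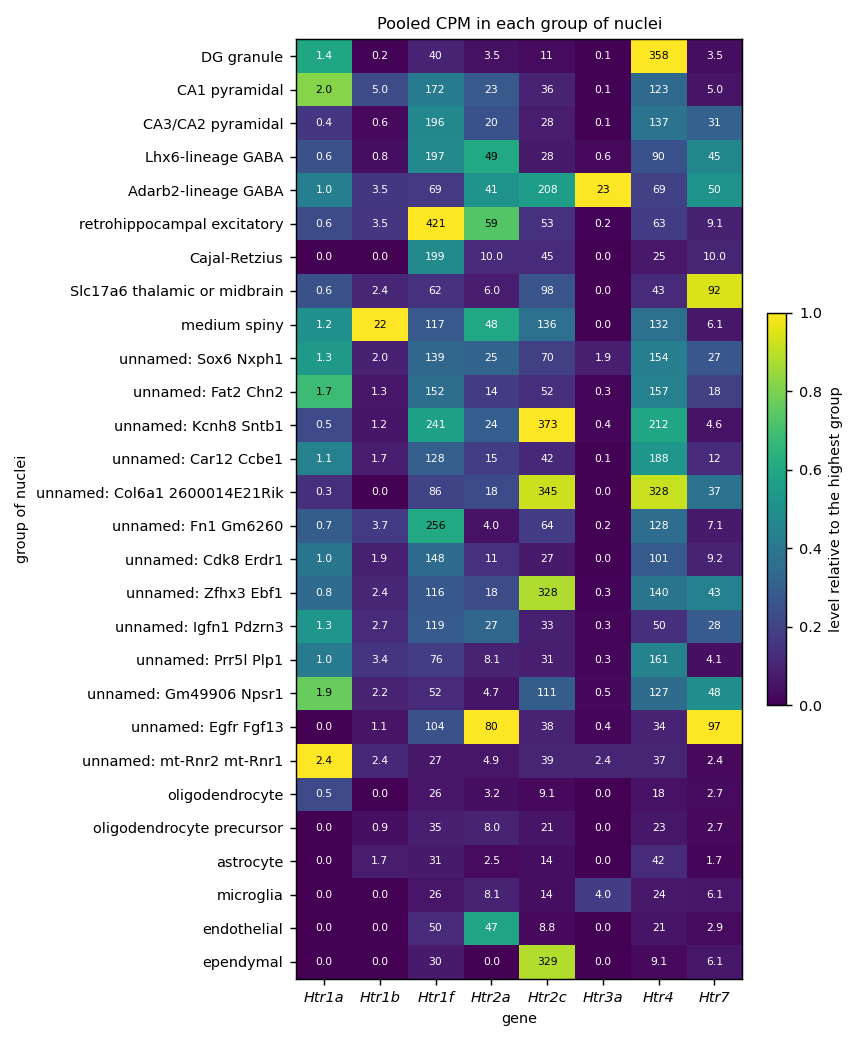
Pooled CPM of each gene (numbers, sum over the 8 pools) in each named class or unnamed cluster with at least 50 nuclei; colour gives the level relative to the gene's highest group. *Htr3a* is bright in 1 row, *Adarb2*-lineage GABA nuclei (23 CPM), while *Htr2c* is bright in 3 unnamed clusters and in the ependymal row, where 2 nuclei carry it.

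*Htr3a*, whose product is the only serotonin receptor subunit of the set that forms an ion channel, was the most restricted. It was at 21.1 ± 6.72 CPM in *Adarb2*-lineage GABA nuclei, from 8.17 (2 UMIs) in Control-PLX5622 to 29.7 CPM in Stress-IL-1R1+/+ with a median of 21.4 CPM. The other 5 classes had means of 0.0935 to 0.428 CPM, and 7.72% of *Adarb2*-lineage nuclei had a *Htr3a* UMI against 0.223% of *Lhx6*-lineage nuclei at a median depth of 2543 UMIs. The mean log2 difference between these GABA classes was 3.98 ± 0.631 (SD, 8 of 8 pools, exact permutation test, adjusted p = 0.0312). *Adarb2* marks interneurons of the caudal ganglionic eminence, for which *Htr3a* is a known marker, and *Htr3a* took no part in naming the class.

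Of the Gs-coupled genes, *Htr4* was highest in granule nuclei and *Htr7* in both GABA classes and CA3/CA2. *Htr4* was at 348 ± 33.8 CPM in DG granule nuclei, where the lowest pool had 301, the median was 357 and the highest pool had 379 CPM. CA3/CA2 nuclei held 125 ± 29.2, CA1 118 ± 17.6, *Lhx6*-lineage 83.4 ± 16.0, retrohippocampal 70.4 ± 17.7 and *Adarb2*-lineage nuclei 63.96 ± 19.2 CPM. The steps from DG to CA3/CA2 (mean log2 difference 1.49 ± 0.315, SD) and from CA1 to *Lhx6*-lineage nuclei (0.50 ± 0.317) passed the test in 8 of 8 pools. A *Htr4* UMI was found in 48.0% of DG granule nuclei (median depth 1941 UMIs) and 2.96% of oligodendrocytes, and thinned to 500 UMIs these shares were 16.2% and 1.24%. At the finer clustering, DG nuclei led by *Glis3* and *Trpc6* held 406 CPM (394 to 417), those led by *Dsp* 311 CPM (301 to 321) and those led by *Mmel1* and *Plk5*, at a median of 485 UMIs, 283 CPM (259 to 310). The intervals cover counting error only.

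*Htr7* was at 50.3 ± 12.3 CPM in *Adarb2*-lineage, 37.6 ± 16.3 in *Lhx6*-lineage and 28.1 ± 4.25 CPM in CA3/CA2 nuclei, and these were not separated as neighbours. Retrohippocampal nuclei followed at 7.94 ± 3.85 CPM, a mean log2 difference of 1.962 ± 1.09 (SD) from CA3/CA2 that held in 8 of 8 pools (exact permutation test, adjusted p = 0.0312). CA1 and DG granule nuclei held 5.77 ± 3.31 and 3.61 ± 2.23 CPM. Within CA3/CA2 at the finer clustering, 663 nuclei led by *Gm43154*, *Fyb2* and *Vit* held 70.7 CPM of *Htr7* (63.0 to 79.2), while the 4 other clusters of that name held 8.08 to 21.4 CPM. An unnamed cluster led by *Egfr* and *Fgf13* was high in both *Htr7* (97.3 CPM) and *Htr2a* (80.2 CPM), and *Slc17a6* thalamic or midbrain nuclei held 91.8 CPM of *Htr7*.

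Summed by coupling on the per-length scale, *Htr4* and *Htr7* made up 74.0% of the mean CPM per kb of the 8 genes in DG granule nuclei, and the Gi-coupled genes 66.8% in retrohippocampal, 64.5% in CA1, 46.0% in CA3/CA2 and 42.7% in *Lhx6*-lineage nuclei. In *Adarb2*-lineage nuclei, *Htr3a* alone made up 33.7%, the Gq-coupled genes 27.3%, the Gi-coupled genes 22.0% and the Gs-coupled genes 17.0%. These shares rest on nuclear UMIs divided by gene length, depend on that division, and do not give amounts of receptor. Some also rest on few UMIs. In CA1 the Gi-coupled share holds *Htr1a* (0.390 CPM per kb, 49 UMIs) and *Htr1b* (0.965 CPM per kb, 123 UMIs), both near the limit of detection. In *Adarb2*-lineage nuclei the *Htr3a* share rests on 178 UMIs.

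Across the 23 neuronal clusters, the genes most like each receptor gene were taken from 12236 genes with at least 500 UMIs by Pearson's r of log2(CPM + 1), a description over clusters that share libraries and depth. *Htr3a* was most like *Vip* (r = 0.874), a neuropeptide gene of interneurons, *Rgs12* (0.818) and *Npas1* (0.814). *Htr7* was most like *A830019P07Rik* (0.933), *Lnx1* (0.810) and *Hhipl1* (0.793), and among the 3 genes most like *Htr4* were *Nsun7* (0.818) and *Nr3c2* (0.809), the mineralocorticoid receptor gene. *Htr1f* was most like *Slc36a1* (0.824), *Acbd4* (0.759) and *Gm43597* (0.727), *Htr1b* like *Ppp1r1b* (0.814), *D430036J16Rik* (0.796) and *Gm50024* (0.793), and *Htr1a* like *Doc2b* (0.797), *Rph3al* (0.779) and *4930431P19Rik* (0.740). The least close were *Htr2a*, with *Neto2* (0.744), *Galntl6* (0.739) and *Zfp945* (0.712), and *Htr2c*, with *Trpc7* (0.692), *Sgcd* (0.671) and *Naaa* (0.666). *Vip* and *Npas1* are among the markers that named the *Adarb2* class, and *Ppp1r1b* among those of medium spiny nuclei, where *Htr1b* was at 22 CPM over the pools and nearly all nuclei came from Stress-IL-1R1+/+. Between receptor genes, r ran from −0.37 (*Htr1a* and *Htr7*) to 0.50 (*Htr1f* and *Htr2a*).

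RSD was then tested in the 5 hippocampal classes over the 4 pairs, with the pair as a term (edgeR's quasi-likelihood test, Benjamini-Hochberg over all genes of the class). *Htr1f*, *Htr2a*, *Htr2c*, *Htr4* and *Htr7* passed the filter on low counts in all 5 classes, *Htr1b* in CA1 alone and *Htr3a* in *Adarb2*-lineage nuclei alone, which gives 27 tests, and *Htr1a* passed in none. None of the 27 was called at an adjusted p under 0.05, with lowest adjusted p = 0.153, and DESeq2 called 0. Of all genes, the same test called 0.0934% in DG granule, 0.0426% in CA1, 0.574% in CA3/CA2, 0.212% in *Lhx6*-lineage and 0.0222% in *Adarb2*-lineage nuclei. At an unadjusted p under 0.05 there were 5 of 27, against 10.1% of all tests over all genes. The median SE of the 27 log2 fold changes was 0.191, and they ran from −0.71 to 0.52.

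*Htr4* in DG granule nuclei was at 342 ± 40.8 CPM in control and 353 ± 30.4 CPM in stress pools (SD, n = 4 each). Its log2 fold change was 0.023 ± 0.096 (SE) with an approximate 95% interval of −0.16 to 0.21. The pools of the groups overlapped. *Htr1f* in CA3/CA2 nuclei differed by 0.071 ± 0.11 (SE) with an approximate 95% interval of −0.15 to 0.30. Its log2 ratios of stress to control ran from −0.018 to 0.20 in single pairs, above 0 in 3 of 4. Both intervals treat the estimate as normal and are too narrow for so few pools. For *Htr3a* in *Adarb2*-lineage nuclei, the control pools had 28.1, 8.17, 21.7 and 21.2 CPM and the stress pools 20.8, 16.4, 29.7 and 22.9 CPM (vehicle, PLX5622, IL-1R1+/+ and nIL-1R1-/- in this order), so the groups overlapped.

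**Figure D3:**
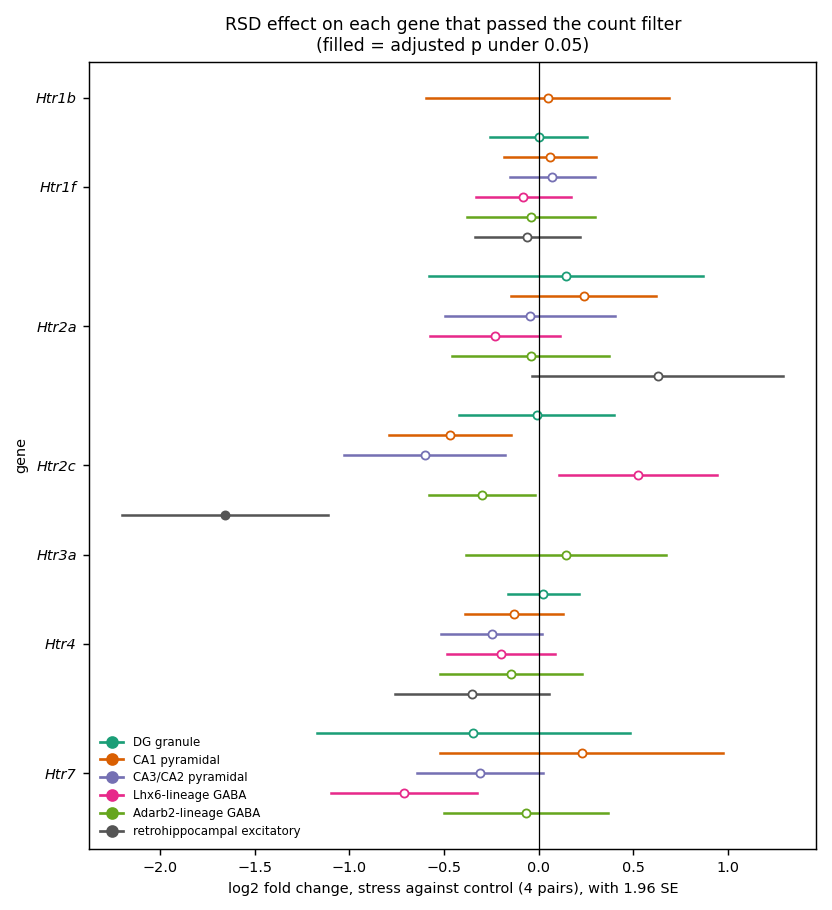
Log2 fold change of stress against control pools (4 pairs, edgeR) for each receptor gene and class that passed the filter on low counts. Lines are approximate 95% intervals from the SE, too narrow for so few pools, and a filled point has an adjusted p under 0.05. *Htr2c* in retrohippocampal excitatory nuclei, at −1.66, is the one filled point.

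Of the 5 tests with an unadjusted p under 0.05, 4 concerned *Htr2c* and 1 *Htr7*. *Htr2c* in CA1 was at 39.6, 59.1, 47.3 and 29.4 CPM in the control pools and at 28.2, 37.9, 29.7 and 28.4 CPM in the stress pools of the same 4 pairs, lower after stress in 4 of 4 pairs although the groups overlapped (log2 fold change −0.47 ± 0.16 SE, edgeR's quasi-likelihood test, adjusted p = 0.231). In CA3/CA2 the control pools had 42.6, 36.3, 24.6 and 25.7 CPM and the stress pools 17.2, 7.16, 28.0 and 15.3 CPM. The IL-1R1+/+ pair alone was higher after stress there, and the log2 fold change was −0.60 ± 0.22 (adjusted p = 0.211). It was −1.14 without the IL-1R1+/+ pair (adjusted p = 0.0197), so whether it was called depended on that pair. The share of all genes called in that smaller fit was not taken, so this call does not set *Htr2c* apart. In *Adarb2*-lineage nuclei, the named class with the highest *Htr2c*, the change was −0.30 ± 0.14 (adjusted p = 0.916), lower after stress in 3 of 4 pairs.

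In *Lhx6*-lineage nuclei *Htr2c* differed in the opposite direction. The control pools had 14.7, 21.9, 26.8 and 27.0 CPM and the stress pools 37.7, 33.9, 35.7 and 30.02 CPM, so every stress pool stood above every control pool, which was so for 1.71% of the 10866 genes tested in this class. The log2 fold change of 0.52 ± 0.21 (SE) did not pass (edgeR's quasi-likelihood test, adjusted p = 0.421). *Htr7* in the same class was at 61.9, 21.9, 44.01 and 57.2 CPM in control and at 20.2, 24.2, 28.2 and 42.7 CPM in stress pools, with −0.71 ± 0.20 (adjusted p = 0.153). The PLX5622 pair rested on 7 and 10 *Htr7* UMIs and was the one pair in which stress was not lower.

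**Figure D4:**
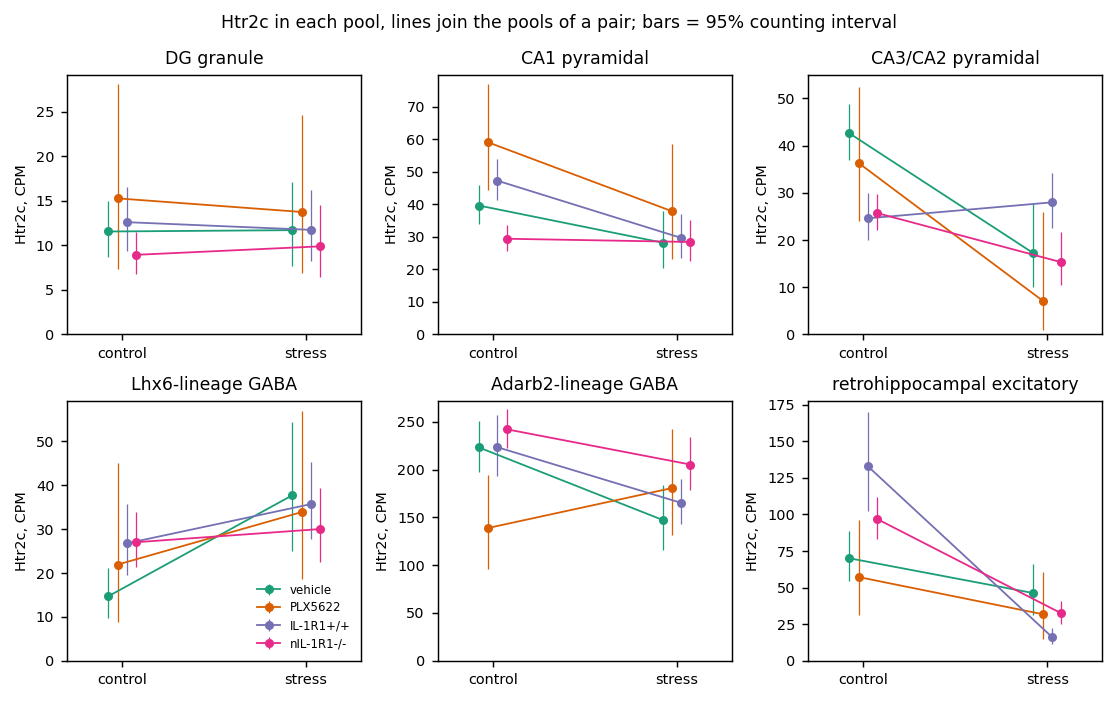
*Htr2c* (CPM, linear axis from 0) in the control and stress pool of each pair in 6 neuron classes; lines join the pools of a pair and bars are 95% counting intervals. All 4 lines go up in *Lhx6*-lineage nuclei (14.7 to 27.0 against 30.02 to 37.7 CPM) and down in retrohippocampal nuclei (57.2 to 133 against 16.4 to 46.3 CPM).

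The retrohippocampal excitatory class was fitted in the same way after its levels had been seen. Its name is less secure than the others: 4 of its 10 marker genes reached 0.2 of their level in the highest cluster. Its mean marker level, relative to the highest cluster, was 0.347, against 0.706 to 0.94 in the largest clusters of the other classes. *Htr2c* was lower after stress in the retrohippocampal class. Of the 4 receptor genes tested in that class (*Htr1f*, *Htr2a*, *Htr2c* and *Htr4*) it was the 1 called, beside 0.699% of all genes (58 of 8293). The control pools had 70.1, 57.2, 133 and 96.9 CPM and the stress pools 46.3, 31.8, 16.4 and 32.5 CPM (vehicle, PLX5622, IL-1R1+/+, nIL-1R1-/-), so every stress pool stood below every control pool, as for 2.53% of the genes tested. The log2 fold change was −1.66 ± 0.28 (SE, edgeR's quasi-likelihood test, adjusted p = 0.00493). Without the IL-1R1+/+ pair it was −1.13 (adjusted p = 0.0536). DESeq2 gave −1.58 and no adjusted p, and after thinning to 500 UMIs *Htr2c* no longer passed the filter on low counts. The PLX5622 pair rested on 14 and 9 *Htr2c* UMIs.

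Some marker genes of the retrohippocampal class moved with stress as well. Of its 10 marker genes 9 were tested, with 1 called higher and 2 lower: *Syt6* rose by 2.36 ± 0.24 on the log2 scale (edgeR's quasi-likelihood test, adjusted p = 4.99e-05), and *Rorb* (−1.60 ± 0.28, adjusted p = 0.00771) and *Etv1* (−1.25 ± 0.26, adjusted p = 0.0256) fell. The 6 others were not called, with *Cux2* at 0.84, *Foxp2* at 0.59, *Nr4a2* at 0.11, *Hs3st4* at −0.074, *Tle4* at −0.094 and *Tshz2* at −0.56 on the log2 scale. A *Syt6* UMI was found in 1.39% to 8.26% of the nuclei of the class in control pools and in 3.90% (Stress-PLX5622) to 31.4% in stress pools. A *Rorb* UMI was found in 17.2% of all control and 6.46% of all stress nuclei of the class. By pair (vehicle, PLX5622, IL-1R1+/+, nIL-1R1-/-), control pools had 13.9%, 6.48%, 22.0% and 26.0%. Stress pools had 3.38%, 7.32%, 6.86% and 7.43%, so the share was not lower in the PLX5622 pair. In the order of the pairs given above, *Htr2c* in nuclei with a *Rorb* UMI was at 83.1, 57.2, 257 and 132 CPM in control pools. In stress pools it was at 236, 85.8, 84.7 and 105 CPM, higher in the first pair and the second, and lower in the others. The vehicle stress value rests on 7 *Htr2c* UMIs and the PLX5622 values on 1 and 3, too few to give a direction. Counting intervals were apart only in the IL-1R1+/+ pair (184 to 350 against 48.4 to 138 CPM). In nuclei with a *Syt6* UMI it was at 17.6, 0, 194 and 197 CPM in control and at 15.8, 0, 9.05 and 11.4 CPM in stress pools, lower after stress mainly in the IL-1R1+/+ and nIL-1R1-/- pairs. At most 43 *Htr2c* UMIs stand behind each of these 8 values. Nuclei with neither held 61.1 and 24.2 CPM (51.3 to 72.2 and 19.2 to 30.1), from 50.9 to 76.8 CPM in single control pools and from 10.5 to 46.5 CPM in single stress pools. Fewer nuclei of a subtype and less marker RNA per nucleus cannot be told apart here, and their part in the lower *Htr2c* was not tested. Nor was the part of the unnamed cluster led by *Igfn1*, whose nuclei numbers differed between the pools of a pair. In Con-IL-1R1+/+, the pool with the highest *Htr2c* and the lowest *Htr2a* of the class, the class held 109 nuclei against 205 to 498 in the other pools.

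Diet and genotype were read from the pair terms of the same fit, 2 pools against 2. No receptor gene was called for PLX5622 against vehicle chow in 27 tests by edgeR or DESeq2, and 1 had an unadjusted p under 0.05, *Htr2c* in CA1 (log2 difference 0.56 ± 0.26 SE, adjusted p = 0.872). Over all genes edgeR called 0.127% in DG granule, 0% in CA1, 0.111% in CA3/CA2, 0.0184% in *Lhx6*-lineage and 0.0778% in *Adarb2*-lineage nuclei. The PLX5622 pools are also the shallow ones, and diet and depth cannot be told apart. For nIL-1R1-/- against IL-1R1+/+, edgeR and DESeq2 again called 0 of 27, beside 0.00849%, 0%, 0.0343%, 0.0092% and 0% of all genes in the same classes. At an unadjusted p under 0.05 there were *Htr4* in CA3/CA2 (0.46 ± 0.17, adjusted p = 1.00) and *Htr1f* in *Lhx6*-lineage nuclei (−0.36 ± 0.17, adjusted p = 1.00).

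The study asks whether the response to RSD needs IL-1R1 on neurons. For the receptor genes, the RSD effect in the nIL-1R1-/- pair was set against that of the other 3 pairs with an added term, which gave 28 tests since *Htr1a* passed the filter in CA1. edgeR called 0 of 28, and 0% of all genes in each of the 5 classes. At an unadjusted p under 0.05 there was 1, *Htr2a* in CA3/CA2 (log2 difference of effects 1.27 ± 0.45 SE, adjusted p = 1.00). There *Htr2a* went from 16.3 to 27.8 CPM in the nIL-1R1-/- pair and from 26.0 to 13.2, 29.8 to 10.7 and 18.4 to 18.2 CPM in the vehicle, PLX5622 and IL-1R1+/+ pairs. With 1 pair on the one side, the median SE of these differences was 0.402.

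Genes that act around the receptors were tested from 6 lists with 42 genes, of which 26 to 29 passed the filter in a class. The lists hold other serotonin receptors (6 genes), serotonin synthesis, transport and breakdown (7), G protein alpha subunits (8), effector enzymes (9), GIRK channels (4) and receptor partners and editing enzymes (8). With RSD, 0 of 139 tests were called in either direction (edgeR's quasi-likelihood test), and 22, or 15.8%, had an unadjusted p under 0.05, against 10.1% of all tests over all genes. Of all genes, 0.0222% to 0.574% were called per class. By list, the tests with an unadjusted p under 0.05 were 1 of 4, 2 of 7, 7 of 40, 7 of 40, 3 of 15 and 2 of 33 in the order of the lists. Closest to the threshold was *Kcnj3*, which encodes a subunit of the potassium channel that Gi-coupled receptors open, with −0.45 ± 0.11 (SE) in CA3/CA2 (adjusted p = 0.0518), −0.46 ± 0.12 in CA1 (adjusted p = 0.130) and −0.38 ± 0.10 in DG granule nuclei (adjusted p = 0.149). It was picked out after its values had been seen. For diet, genotype and the added nIL-1R1-/- term, 0 of 139, 0 of 139 and 0 of 152 were called, with 6, 2 and 2 at an unadjusted p under 0.05.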

How the data were processed

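The authors aligned reads of split-pool barcoded nuclei (Parse Biosciences) to GRCm39 (mm39 in the submitters' processing notes, which also name Seurat 4.1.1) and deposited whole-number UMI counts per nucleus and gene, with no scaling. The release of their gene annotation and the strand setting are not given in the sources used here, so reads of overlapping genes cannot be told apart. The pool of a nucleus comes from the deposited table of nuclei and the labels.

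Nuclei over 20% mitochondrial UMIs were left out. Counts were log-normalized, and nuclei were clustered on 30 principal components of 2000 variable genes, without genes named Htr (scanpy 1.11.5, leidenalg 0.10.2, resolution 1.0). Clusters were named from marker lists, by a rule revised after cluster tables were seen and before receptor values were. No doublet caller was run, and leaving out the top 5% of nuclei by UMIs was an alternative. UMIs were summed per pool and class and divided by the class total for CPM. Intervals on CPM are exact Poisson at 95% and cover counting error alone.

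RSD was tested with edgeR 4.0.16 (TMM, filterByExpr, quasi-likelihood, R 4.3.3) on `pair + RSD`, and with DESeq2 1.42.0. The pairs follow the design (same chow or genotype). After the mean of its group was taken from each pool, r between the pools of a pair was 0.0448 to 0.23. On simulated counts 45.0% and 81.0% of genes changed 1.5-fold and 2-fold were called in DG granule nuclei (11778 genes), and 24.0% and 66.0% in *Adarb2*-lineage nuclei (9000 genes). The simulation changed 100 genes at each fold and held no pair effects. The real RSD fits called 11 and 2 genes in these classes, so the adjusted threshold was stricter there. These rates may therefore be too high for a receptor gene in the data. Level differences used exact sign-flip tests (scipy 1.17.1). The receptor genes are all named in every class. Of other genes, those called from the pathway lists, the 3 most alike to each receptor gene, *Il1r1*, *Csf1r* and *P2ry12* are named, with others said to be chosen later or given as markers. A gene that this rule selects is not reported here. The 8 genes, the lists and the tests were chosen with earlier results of these data known.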

Additional observations from a re-analysis of the deposited data

Results flagged for a closer look

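In 64 groups of 4 control or 4 stress pools, 5 held a pool apart from the others by Dixon's test at 95%, where chance gives about 1 in 20. *Htr1f* in *Lhx6*-lineage GABA nuclei was at 262 CPM in Con-IL-1R1+/+ against 166 to 182 CPM in the other control pools. *Htr2a* in DG granule nuclei was at 9.16 CPM in Control-PLX5622 against 2.67 to 3.43 CPM, though the 9.16 CPM rests on 6 UMIs. In *Adarb2*-lineage GABA nuclei *Htr2a* was at 30.5 CPM in Control-Vehicle against 44.9 to 45.6 CPM. In retrohippocampal excitatory nuclei *Htr2a* was at 30.3 CPM in Stress-Vehicle against 71.6 to 74.4 CPM in the other stress pools. *Htr2c* in CA1 pyramidal nuclei was at 37.9 CPM in Stress-PLX5622 against 28.2 to 29.7 CPM.

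With UMIs summed over the pools, some nuclei outside the compared classes held more of a receptor gene than any of the 6 classes, with counting intervals apart. These intervals leave out the spread between pools. *Htr1b* was at 22.0 CPM over the pools in medium spiny nuclei, against 5.0 CPM in CA1. The medium spiny value rests on 18 UMIs, with 5 of 6 pools at 0 CPM. Its mean over pools was 3.86 CPM, below the mean of 5.37 CPM in CA1. *Htr2a* was at 80.2 CPM and *Htr7* at 97.3 CPM in the cluster led by *Egfr*, *Fgf13* and *Gad2*, against 58.6 CPM in retrohippocampal and 50.1 CPM in *Adarb2*-lineage nuclei, and *Htr7* was at 91.8 CPM in *Slc17a6* thalamic or midbrain nuclei. Single pools of the *Egfr* cluster ran from 61.1 to 110 CPM for *Htr2a* and from 73.6 to 125 CPM for *Htr7*. Those of the *Slc17a6* nuclei ran from 0 to 509 CPM for *Htr7*. *Htr2c* was at 373, 345 and 328 CPM in the clusters led by *Kcnh8*, *Col6a1* and *Zfhx3*, against 208 CPM in *Adarb2*-lineage nuclei, and near 12100 CPM in the 2 nuclei with choroid plexus markers. Single pools of these clusters ran from 220 to 426, from 137 to 472 and from 25.7 to 396 CPM. Those of *Adarb2*-lineage nuclei ran from 139 to 242 CPM.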

How the results depend on the processing

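Of 297 values set against an alternative, 273 kept their direction and their side of the threshold or stayed within the spread. Counts of 0 genes called that stayed 0 were among the 273. So were mean levels with a pair left out. Leaving out a pair cannot move a mean beyond the SD of the 8 pools, so these checks could not fail. A fit with no adjusted p was taken as kept if its direction held, as for DESeq2 and *Htr2c* in the retrohippocampal class. The DESeq2 count of receptor genes called in that class, 0, was not among the 297. The count of receptor genes called with RSD in CA3/CA2 ran from 0 to 1 when each pair was left out in turn, the 1 being *Htr2c* without the IL-1R1+/+ pair (−1.14, adjusted p = 0.0197). The shares of all genes called with a pair left out were not taken. In the retrohippocampal class, fitted after its levels had been seen, the count of 1 ran from 0 to 1 (*Htr2c* at −1.13, adjusted p = 0.0536, without the IL-1R1+/+ pair) and was 0 after thinning to 500 UMIs, where *Htr2c* was filtered out. *Htr2c* there ran from −2.01 to −1.13 over the left-out pairs, was −1.10 at resolution 2.0, which added the *Kcnh8* cluster to the class, and was −1.64 with no replicate block (adjusted p = 0.0089). The fit without the block changed no call. The classes were put in order anew under each alternative. Of 40 neighbour pairs, 10 passed in the main setting, 10 without the top 5% of nuclei and 14 at resolution 2.0. Whether these were the same steps was not recorded. After thinning 0 passed, and 6 of the 10 main steps held in 8 of 8 pools. Yet 6 steps at the smallest p cannot pass an adjustment over 40. With any 1 pair left out 0 passed, since 6 pools allow no p under 0.0312 and more than 25 of 40 would have to reach it. At resolution 2.0 the mean of *Htr1b* in CA1 was 3.69 CPM and that of *Htr1f* in retrohippocampal nuclei 335 CPM, and *Htr1a* in CA1 went from 1.75 to 1.05 CPM. The CA1 class was then made of other nuclei. A cluster of 3623 nuclei whose best marker score was for CA1 kept no name and was left out of it. That cluster held 6.53 CPM of *Htr1b* and 2.56 CPM of *Htr1a* over its pools. *Htr2a* in retrohippocampal nuclei went from 52.3 to 31.6 CPM when thinned. Effects near 0 changed sign: *Htr1f* in *Lhx6*-lineage nuclei was 0.076 when thinned and 0.11 without the top 5% of nuclei, and *Htr4* in DG granule nuclei −0.016 with no filter, −0.0035 when thinned and −0.010 at resolution 2.0. Over left-out pairs, *Htr1b* in CA1 ran from −0.15 to 0.31, *Htr1f* in *Lhx6*-lineage nuclei from −0.20 to 0.038, *Htr3a* in *Adarb2*-lineage nuclei from −0.031 to 0.33, *Htr4* in DG granule nuclei from −0.0048 to 0.044 and *Htr7* in *Adarb2*-lineage nuclei from −0.37 to 0.19, with no call. The cause of these changes was not tested. The PLX5622 pools, at medians of 598 and 628 UMIs per nucleus, limit every class.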
